A study of Mus musculus with 8 samples.

Results

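The genes described here encode proteins that sit at or near the Z-disc of striated muscle and respond to mechanical load. They were chosen by name, as a list of 10 gene symbols, with earlier results of these data known. Of the 10, 9 had a row in the deposited table of 23930 targets. Ankrd23 was not analysed here. The Z-disc anchors the thin filaments and the ends of titin at each border of the sarcomere, and it holds a group of adaptor proteins that are thought to sense stretch. In this group, LIM-domain proteins (Csrp3, Fhl1) bind actinin and titin, ankyrin-repeat proteins (Ankrd1, Ankrd2, Ankrd23) bind the I-band part of titin and can move to the nucleus, myozenins (Myoz1, Myoz2, Myoz3) tether the phosphatase calcineurin to actinin, and Xin repeat proteins (Xirp1, Xirp2) bind and stabilise actin. In skeletal muscle, Csrp3, Ankrd2 and Myoz2 are known as genes of slow fibres, while Myoz1 and Myoz3 are known as genes of fast fibres.

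RNA came from the tibialis anterior (TA) of 4 KO and 4 WT mice, a mostly fast muscle at the front of the lower leg. The KO mice carried a tamoxifen-inducible Cre driven by the human skeletal actin promoter (HSA-Cre) and loxP sites in Sdhc, which encodes a membrane anchor of succinate dehydrogenase. The WT mice were littermates that carried the same Cre without loxP sites. Both groups received tamoxifen at 12 weeks of age, and muscle was taken 3 weeks later. The background is given as C57/B6 in the growth protocol, although the strain names in the genotype labels of the KO mice end in other numbers. HSA-Cre acts in muscle fibres, so the other cells of the muscle would keep Sdhc. Each gene was read by 1 amplicon, in RPM (reads of the amplicon scaled to a common library total), so levels are compared between libraries and not between genes.

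The 8 libraries held 5983175 to 9119006 reads, and the member genes rested on 68 to 17130 reads per library, far above the floor of 3 reads (0.329 to 0.501 RPM). Sdhc stood at 16.9, 46.5, 18.7 and 54.3 RPM in KO1 to KO4, against 737, 853, 848 and 748 RPM in WT1 to WT4. The summed level of 6 defining genes of muscle fibres, among them Ckm and Acta1, was 88230 to 119600 RPM in KO and 83910 to 123800 RPM in WT libraries. The labels give no sex. Xist, the RNA that coats the inactive X chromosome of female cells, was at 117 and 92.0 RPM in KO2 and KO4 and at 102 and 112 RPM in WT2 and WT4, and it was listed at 0 in the other 4 libraries. Those 4 held the Y-linked Ddx3y at 90.3 to 115 RPM, and the libraries with Xist listed Ddx3y at 0. Each genotype thus had 2 libraries with Xist and 2 without.

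The sequences before the annotated starts of Csrp3, Myoz2 and Ankrd2 are shown because Csrp3 and Myoz2 passed a test described further on and Ankrd2 was among the genes that varied most between libraries. Promoter windows from RefSeq (GRCm38.p6) were read for 6 of the 9 genes. Myoz1, Myoz3 and Xirp1 had no window here, which does not show that RefSeq lacks them. Each run gives the 250 bases before the start, 5′ to 3′ on the gene's strand, with capitals for matches to an E-box (CANNTG, bound by myogenic factors such as MyoD), an MCAT element (CATTCC on either strand, bound by TEAD factors), a CArG box (bound by SRF) or a MEF2 site. In GENCODE M21 (GRCm38) Csrp3 spans chr7:48830398-48848033 and Myoz2 chr3:123006206-123035015, both on the minus strand, and Ankrd2 spans chr19:42036000-42045110 on the plus strand. Csrp3 has 2 annotated starts, and the second lies downstream of the first, inside the gene.
Csrp3, first start, chr7:48848052-48848301 on the minus strand: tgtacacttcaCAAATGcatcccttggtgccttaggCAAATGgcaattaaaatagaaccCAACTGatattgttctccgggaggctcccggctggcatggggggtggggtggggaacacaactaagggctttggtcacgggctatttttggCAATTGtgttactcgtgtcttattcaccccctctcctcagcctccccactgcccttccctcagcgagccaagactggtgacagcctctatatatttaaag
Csrp3, second start, chr7:48843672-48843921 on the minus strand: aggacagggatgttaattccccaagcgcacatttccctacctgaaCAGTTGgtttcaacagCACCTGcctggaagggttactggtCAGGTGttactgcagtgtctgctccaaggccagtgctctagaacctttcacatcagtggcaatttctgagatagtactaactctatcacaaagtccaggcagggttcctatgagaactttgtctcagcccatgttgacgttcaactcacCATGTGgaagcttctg
Myoz2, chr3:123034988-123035237 on the minus strand: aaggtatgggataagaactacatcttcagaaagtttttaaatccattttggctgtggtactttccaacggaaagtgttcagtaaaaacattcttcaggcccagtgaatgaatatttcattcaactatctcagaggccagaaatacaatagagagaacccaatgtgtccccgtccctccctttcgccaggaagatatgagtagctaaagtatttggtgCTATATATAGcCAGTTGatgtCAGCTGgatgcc
Ankrd2, chr19:42035777-42036026 on the plus strand: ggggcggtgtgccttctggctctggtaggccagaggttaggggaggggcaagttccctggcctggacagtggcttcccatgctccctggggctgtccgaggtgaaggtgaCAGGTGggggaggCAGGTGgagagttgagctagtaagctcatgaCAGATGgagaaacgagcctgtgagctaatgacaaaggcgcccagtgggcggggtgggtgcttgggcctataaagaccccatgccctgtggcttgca
Each Csrp3 window held 4 E-boxes and none of the other motifs. The Myoz2 window held 2 E-boxes beside a MEF2 match that ends 24 bases before the RefSeq start. Both E-boxes and part of the MEF2 match lie inside the GENCODE span of Myoz2. The Ankrd2 window held 3 E-boxes. Its last bases also reach into the GENCODE span of the gene, but the E-boxes lie before that span. Of the genes not printed, Ankrd1 had 2 MCAT matches and 1 E-box, the first listed Fhl1 start had a CArG match, and Xirp2 had a MEF2 match. Among all 32851 promoter windows of this length, 66.2% held an E-box, 12.6% an MCAT element, 1.47% a CArG box and 2.92% a MEF2 match, so an E-box is found in most windows. A match is a string of letters and not a measured binding site.

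KO and WT muscle were compared first, which asks whether the loss of Sdhc in fibres goes with a change in these load-responsive genes. None of the 9 genes passed the threshold (limma with Benjamini-Hochberg (BH) adjustment over 11004 tested genes, adjusted p under 0.05), where 0.0273% of all genes did. At an unadjusted p under 0.05 the count was 0 of 9 in limma, where 9.22% of all genes passed, 8.56% lower and 0.663% higher in KO. EdgeR and DESeq2 on the recovered reads also called 0 of 9, where they called 0.00909% and 1.35% of all genes. At an unadjusted p under 0.05 edgeR had 1, Ankrd1, where 10.1% of all genes passed. The difference between KO and WT in log2(RPM + 1) was above 0 in 4 of 9 genes (40.8% of all genes) and below 0 in 5 (59.2% of all genes), with a median of -0.05, and the median of all genes tested was -0.05. In 0 of 9 genes were the KO and WT values fully apart, against 5.1% of all genes. Exact two-sided permutation tests of each gene gave p from 0.171 to 0.971, where 4 against 4 libraries can reach 0.0286.

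**Figure D1:**
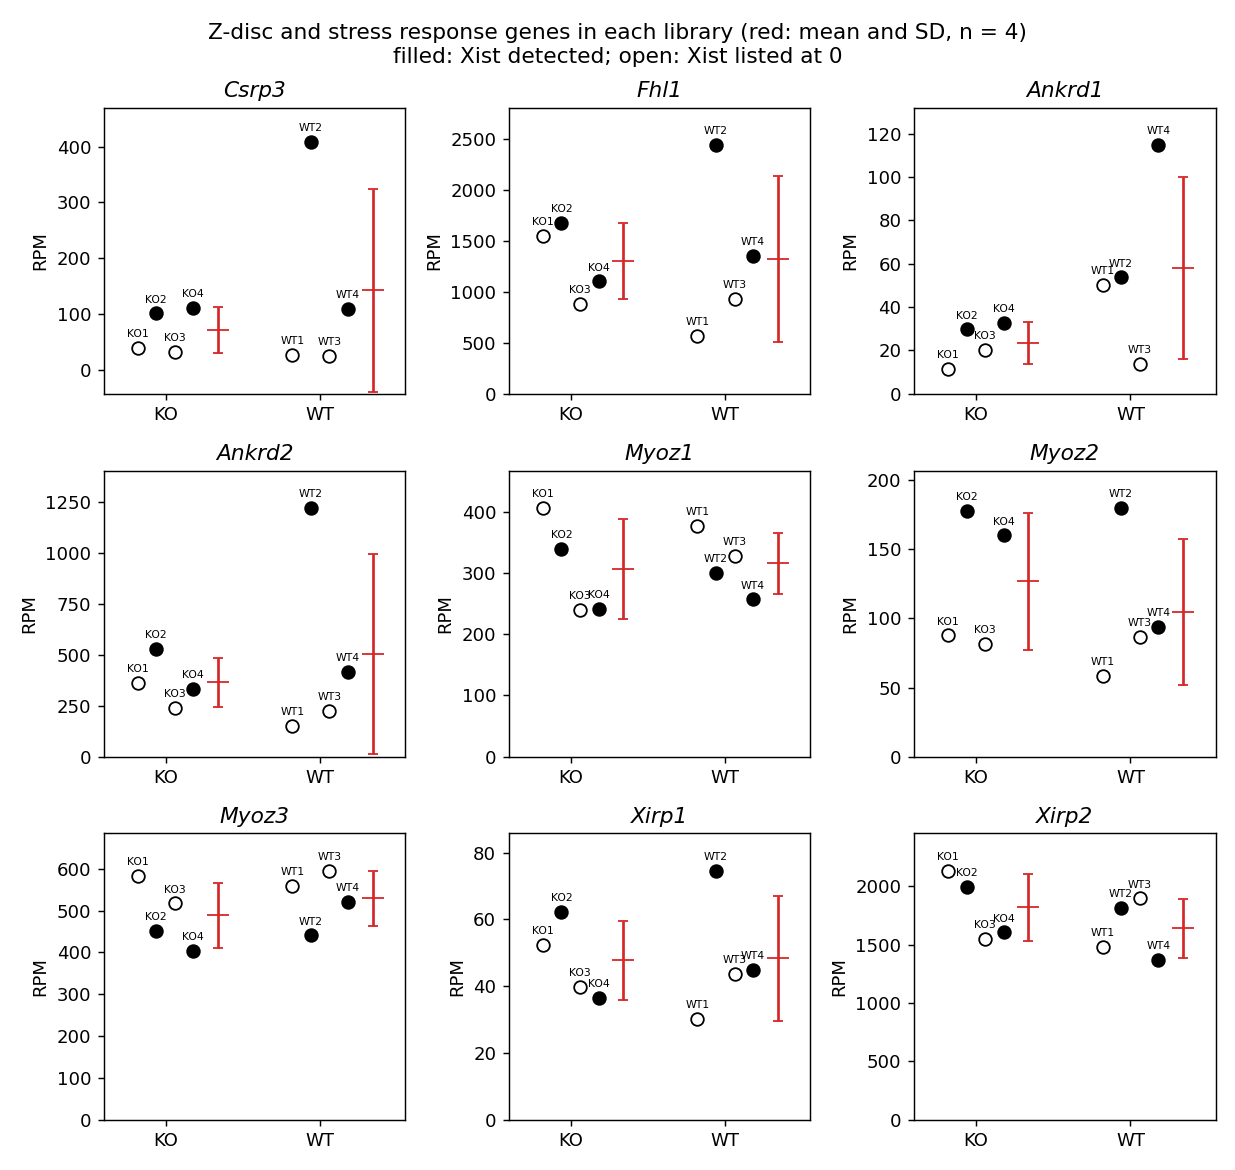
RPM of each of the 9 genes in the KO (left) and WT (right) libraries, with red bars for the mean and SD of 4 libraries. Filled points are libraries with Xist and open points those with Xist listed at 0. Csrp3 lies at 101 to 409 RPM in the filled and 25.6 to 38.8 RPM in the open points, and the KO and WT values overlap in every panel.

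The LIM-domain genes had no shift with genotype that exceeded the spread. Csrp3, also called muscle LIM protein, binds actinin and telethonin at the Z-disc, and its loss causes dilated cardiomyopathy in mice. It stood at 38.8, 101, 32.5 and 111 RPM in KO1 to KO4, against 27.1, 409, 25.6 and 109 RPM in WT1 to WT4. WT2 was the highest library by far, and in both genotypes libraries 2 and 4 lay above libraries 1 and 3. The mean was 70.9 ± 41.0 RPM in KO and 143 ± 182 RPM in WT libraries (SD, n = 4 each). KO differed from WT by -0.28 in log2(RPM + 1) (SE 0.71, BH-adjusted p = 0.956 in limma), and the 95% interval ran from -1.82 to 1.25. Without WT2 it was 0.53 and without KO3 it was 0.0147, so the direction depends on single libraries. It was -0.93 in edgeR and in DESeq2 and -1.38 with the mean of the slow fibre contractile genes as a covariate (adjusted p = 0.495). Fhl1, a protein built of LIM domains that binds titin and is mutated in human reducing body myopathy, stood at 1553, 1676, 882 and 1105 RPM in KO1 to KO4, against 565, 2447, 929 and 1352 RPM in WT1 to WT4. The highest and the lowest value were both WT libraries, and the KO values lay between them. Its log2 difference was 0.14 (SE 0.35, adjusted p = 0.956).

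Neither of the titin-binding ankyrin-repeat genes passed the test for genotype. Ankrd1 (cardiac ankyrin repeat protein), which is known to be induced by stretch, injury and denervation, stood at 11.4, 29.7, 20.3 and 32.8 RPM in KO1 to KO4, against 50.1, 53.7, 13.8 and 115 RPM in WT1 to WT4. All KO libraries lay below 3 of the WT libraries, but WT3 was as low as the KO libraries. The mean was 23.5 ± 9.68 RPM in KO and 58.1 ± 41.9 RPM in WT libraries (SD, n = 4 each). KO differed from WT by -1.04 on the log2 scale (SE 0.48, BH-adjusted p = 0.547 in limma), with an interval from -2.08 to 0.01 and an exact permutation p of 0.171. Its adjusted p was 0.0511 without WT3, and the difference was -0.32 without WT1 and WT4. Ankrd2, a stretch-responsive gene of slow fibres, stood at 362, 528, 238 and 333 RPM in KO1 to KO4, against 151, 1222, 223 and 418 RPM in WT1 to WT4. The KO values lay inside the WT range, whose upper end was WT2. Its difference was -0.05 (SE 0.48, adjusted p = 0.997), and it was 0.54 without WT2.

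Markers of other cells were summed beside these values, and for 4 of the lists the KO and WT sums did not overlap. The summed level of 8 fibroblast genes was 438 to 845 RPM in KO and 1072 to 2709 RPM in WT libraries, that of 8 macrophage genes was 26.6 to 32.4 RPM in KO and 41.7 to 199 RPM in WT, that of 7 tendon genes was 33.3 to 57.2 RPM in KO and 67.3 to 220 RPM in WT, and that of 7 bone genes was 1.85 to 13.2 RPM in KO and 14.4 to 713 RPM in WT. No KO library reached the lowest WT library in any of these 4 sums. Of these lists, all 8 tested fibroblast, all 7 tested macrophage, all 7 tendon and 4 of 5 tested bone genes had a KO to WT difference below 0, with 0 past the threshold (limma with BH). At an unadjusted p under 0.05, 6 fibroblast, 5 macrophage, 7 tendon and 4 bone genes were lower in KO. C1qa, Ctsk, Dmp1 and Sp7 were listed at 0 in at least 1 library. WT4 and WT1 had the highest sums of fibroblast, macrophage and bone genes, WT4 also had the most Ankrd1, and their part in its values was not tested. Other lists overlapped between genotypes, with 326 to 380 RPM in KO and 348 to 386 RPM in WT for endothelial genes, 96.6 to 119 RPM in KO and 71.0 to 140 RPM in WT for nerve genes, 11950 to 13060 RPM in KO and 12230 to 14920 RPM in WT for smooth muscle genes, and 178 to 222.3 RPM in KO and 222.0 to 284 RPM in WT for adipocyte genes. Within WT alone, the bone sum was 308, 44.7, 14.4 and 713 RPM in WT1 to WT4. Whether the samples differed in the tissue taken along with the muscle was not tested. In whole muscle, fewer cells of a type and less RNA per cell cannot be told apart.

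The myozenin genes did not differ between KO and WT muscle by more than their spread. Myoz1, the calcineurin-binding protein of fast fibres, stood at 406, 339, 239 and 242 RPM in KO1 to KO4, against 376, 301, 328 and 257 RPM in WT1 to WT4. Myoz3, also of fast fibres, stood at 583, 452, 517 and 403 RPM in KO1 to KO4, against 559, 441, 595 and 521 RPM in WT1 to WT4. Their ranges overlapped between genotypes, and their log2 differences were -0.06 (95% interval -0.45 to 0.32) for Myoz1 and -0.12 (-0.43 to 0.19) for Myoz3. Myoz2, the member of the family found in slow fibres and heart, stood at 87.7, 178, 81.4 and 160 RPM in KO1 to KO4, against 58.2, 180, 86.4 and 94.1 RPM in WT1 to WT4. Its high libraries were KO2, KO4 and WT2. Its difference was 0.31 (SE 0.32, BH-adjusted p = 0.878 in limma), and it was -0.06 without WT1 and WT4.

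The Xin repeat genes were likewise without a difference beyond the spread. Xirp1, which is known to mark damaged and remodelling fibres, stood at 52.3, 62.3, 39.7 and 36.5 RPM in KO1 to KO4, against 30.3, 74.6, 43.7 and 44.8 RPM in WT1 to WT4, with a log2 difference of 0.02 (95% interval -0.49 to 0.54). Xirp2, a larger Xin protein that binds actin and actinin, stood at 2133, 1994, 1553 and 1605 RPM in KO1 to KO4, against 1478, 1814, 1896 and 1369 RPM in WT1 to WT4. KO1 and KO2 lay above every WT library. The difference for Xirp2 was 0.15 (SE 0.15, BH-adjusted p = 0.873 in limma), with an interval from -0.17 to 0.48. For Myoz1, Myoz3 and Xirp2 the intervals stay within 0.5 on either side of 0, while those of Csrp3, Ankrd1 and Ankrd2 include a difference of -1 on the log2 scale. At the upper end, the interval of Csrp3 ran to 1.25 and that of Ankrd2 to 0.997, while that of Ankrd1 ended at 0.01.

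Several of these genes varied widely in level from one mouse to the next. Within genotypes, the SD of log2(RPM + 1) was 1.47 for Csrp3, 0.99 for Ankrd2, 0.99 for Ankrd1, 0.70 for Fhl1 and 0.62 for Myoz2, where the median of the 6696 genes averaging 10 RPM or more was 0.21. These 5 values stood at the 98.1th to 99.7th percentile of those genes. Xirp1 stood at the 94.9th percentile and Myoz1 at the 83.0th, while Xirp2 (0.23) and Myoz3 (0.21) were close to the median. The spread of Csrp3 was 0.90 among KO and 1.88 among WT libraries, and that of Ankrd2 was 0.47 among KO and 1.31 among WT libraries. WT2 was the highest library in 5 of the 9 genes and WT1 the lowest in 4, and it was the upper end of the WT range in Csrp3, Ankrd2, Myoz2, Fhl1 and Xirp1.

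**Figure D2:**
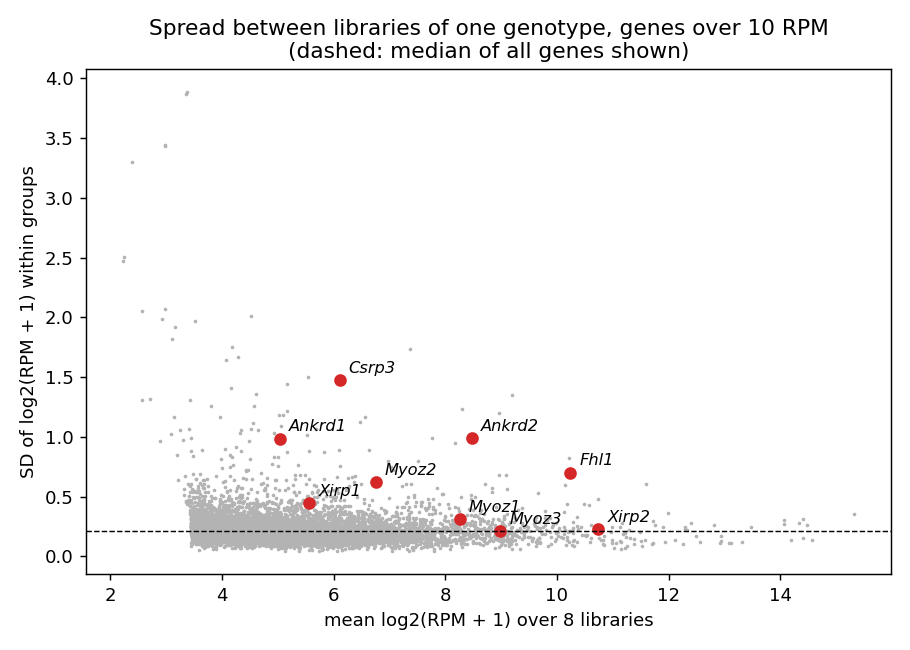
SD of log2(RPM + 1) within genotypes (pooled over KO and WT) against the mean of log2(RPM + 1), for 6696 genes averaging 10 RPM or more, with the 9 genes in red. Csrp3 lies at 1.47 and Ankrd1 and Ankrd2 at 0.99, far above the dashed median of 0.21, while Myoz3 and Xirp2 lie on it.

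The libraries with Xist were then compared with those where it was listed at 0, with genotype kept as a term. The Xist term was chosen after its values were seen. The members were chosen with earlier results of these data known, so their counts beside the share of all genes test no excess. Csrp3 and Myoz2 were higher in the 4 libraries with Xist and passed the threshold over all genes, 2 of 9 genes where 0.6% of all genes passed. Csrp3 averaged 182 ± 151 RPM with Xist and 31.0 ± 6.00 RPM without (SD, n = 4 each), and its libraries ranged from 101 to 409 RPM with Xist and from 25.6 to 38.8 RPM without. The log2 difference was 2.25 (SE 0.34, BH-adjusted p = 0.0064 in limma), and every library with Xist was above every library without. Myoz2 averaged 153 ± 40.3 RPM with Xist and 78.5 ± 13.8 RPM without, with ranges of 94.1 to 180 RPM and 58.2 to 87.7 RPM. Its log2 difference was 0.93 (SE 0.18, BH-adjusted p = 0.0424 in limma), again without overlap. A full separation of the libraries was seen in 5.26% of all genes, and one with Xist higher in 2.23%. Csrp3 kept its call without WT2 (1.73, adjusted p = 5.48e-05) and missed the threshold without WT3 (2.10, adjusted p = 0.0527). The call of Myoz2 was lost when any library except WT4 was left out (adjusted p 0.05 to 0.151).

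The other 7 genes did not pass the threshold in the comparison by Xist. At an unadjusted p under 0.05, 5 of 9 genes were higher with Xist, where 4.88% of all genes were, and 1 was lower, where 5.13% of all genes were. Csrp3 and Myoz2 are among the 5. Ankrd1 averaged 57.8 ± 39.6 RPM with Xist and 23.9 ± 17.9 RPM without, a log2 difference of 1.26 (SE 0.34, adjusted p = 0.148). Ankrd2 averaged 625 ± 406 RPM with Xist and 244 ± 87.8 RPM without, a log2 difference of 1.23 (SE 0.34, adjusted p = 0.16) that was 0.78 without WT2. Fhl1, which lies on the X chromosome, had a log2 difference of 0.77 (95% interval 0.17 to 1.37, adjusted p = 0.345) that was 0.49 without WT2, and KO1, without Xist, was higher than KO4 and WT4, both with Xist. Myoz3 was the gene on the other side, with 454 ± 49.4 RPM with Xist and 563 ± 34.3 RPM without, a log2 difference of -0.31 (SE 0.11, adjusted p = 0.343). Myoz1 (-0.23), Xirp1 (0.36) and Xirp2 (-0.06) had intervals that included 0.

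**Figure D3:**
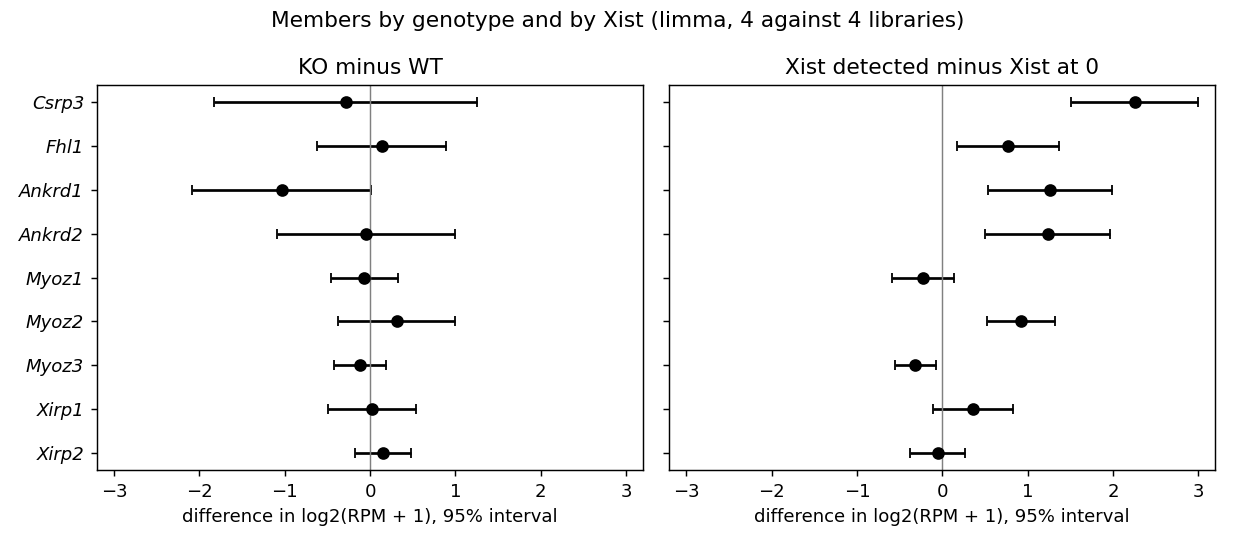
Difference in log2(RPM + 1) with its 95% interval for the 9 genes, KO minus WT on the left and libraries with Xist minus libraries without on the right, 4 against 4 libraries each. All 9 intervals on the left include 0, and on the right those of Csrp3 (2.25), Ankrd1 (1.26), Ankrd2 (1.23), Myoz2 (0.93), Fhl1 (0.77) and Myoz3 (-0.31) do not.

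Xist goes with sex, and the labels give neither sex nor cage nor day of collection, so sex cannot be told apart from anything else that libraries 2 and 4 of each genotype share. Contractile genes of slow fibres had their highest sums in the same libraries. The summed level of 9 slow fibre genes was 348 to 919 RPM with Xist and 215 to 340 RPM without, and 8 of 9 were higher at an unadjusted p under 0.05, with 0 past the threshold. By genotype, 8 of 9 were above 0 in KO with a median log2 difference of 0.80, and 3 were higher at an unadjusted p under 0.05. Myl2, the regulatory light chain of slow myosin, averaged 140 ± 115 RPM with Xist and 44.7 ± 12.7 RPM without (SD, n = 4 each). With the mean of the slow fibre list as a covariate in limma, the log2 difference with Xist was 3.25 for Csrp3 (SE 0.66, adjusted p = 0.154). For Myoz2 it was 1.08 (SE 0.40, adjusted p = 0.914), and neither passed. Without the covariate the differences were 2.25 (SE 0.34) and 0.93 (SE 0.18). Over all genes, 11 passed for Xist with the covariate and 66 without it. The slow fibre sums were 264, 551, 340 and 919 RPM in KO1 to KO4, against 215, 348, 221 and 378 RPM in WT1 to WT4. The 4 libraries with the most Csrp3 were also the 4 with the highest slow fibre sums, while the highest single library was WT2 for Csrp3 and KO4 for the slow fibre sum.

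Genotype differences were also read within the libraries with and without Xist, 2 KO and 2 WT libraries each. Csrp3 averaged 106 RPM in KO and 259 RPM in WT libraries with Xist, and 35.7 RPM in KO and 26.3 RPM in WT libraries without. Ankrd2 averaged 431 RPM in KO and 820 RPM in WT libraries with Xist, and 300.3 RPM in KO and 187 RPM in WT libraries without. Fhl1 averaged 1390 RPM in KO and 1900 RPM in WT libraries with Xist, and 1217 RPM in KO and 747 RPM in WT libraries without. In all 3 genes the KO mean was below WT with Xist and above it without. Xirp1 did the same, with 49.4 RPM in KO and 59.7 RPM in WT libraries with Xist, and 46.0 and 37.0 RPM without. Myoz1 crossed the other way, with 290 RPM in KO and 279 RPM in WT libraries with Xist, and 323 and 352 RPM without. Ankrd1, Myoz2, Myoz3 and Xirp2 kept their direction. The KO libraries with Xist also held more Sdhc, 46.5 and 54.3 RPM in KO2 and KO4 against 16.9 and 18.7 RPM in KO1 and KO3. Whether the Sdhc level plays a part in these values was not tested. The interaction of genotype and Xist was -1.41 (SE 0.60) for Csrp3, -1.44 (SE 0.58) for Ankrd2 and -1.11 (SE 0.48) for Fhl1 on the log2 scale. None passed the threshold (limma with BH, adjusted p = 0.9997 for each), and 3 of 9 genes had an unadjusted p under 0.05, where 4.66% of all genes did and 0.0364% passed the threshold. The WT means with Xist rest on WT2. WT4, the other WT library with Xist, held 109 RPM of Csrp3, between the 101 and 111 RPM of KO2 and KO4. With the Xist term in the fit, 0 of 9 genes passed for genotype, and Ankrd1 had a KO to WT difference of -1.04 (SE 0.34, BH-adjusted p = 0.232 in limma).

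The genes most like 4 of the members over the 8 libraries were found by Pearson correlation of log2(RPM + 1) among targets that averaged 10 RPM or more. These are descriptions over 8 libraries that share the contrasts above, and they were picked as the highest of 6695 values. For Csrp3 they were Lmcd1, a LIM and cysteine-rich protein of muscle (r = 0.982, Spearman rho = 0.952), Hspb7, a small heat shock protein of muscle (r = 0.955, rho = 0.81), and Chp1, a calcineurin-like calcium-binding protein (r = 0.954, rho = 0.833). Without the 2 libraries farthest from the median of Csrp3, WT2 and WT3, r was 0.964, 0.925 and 0.921. Lmcd1 stood at 68.0, 108, 64.2 and 112 RPM in KO1 to KO4, against 48.1, 175, 52.6 and 95.2 RPM in WT1 to WT4. It repeated the order of Csrp3 nearly library for library. For Ankrd2 they were Fhl1 (r = 0.958, rho = 0.952), Hyou1, a chaperone of the endoplasmic reticulum (r = 0.954, rho = 0.929), and Cryab, the Z-disc chaperone alpha B crystallin (r = 0.952, rho = 0.81), and r was 0.924, 0.885 and 0.768 without WT1 and WT2. For Xirp1 they were Zfp609 (r = 0.973, rho = 0.929), Mcl1, an anti-apoptotic BCL2 family protein (r = 0.965, rho = 0.976), and Mrpl19, a mitochondrial ribosome protein (r = 0.964, rho = 0.976), with r of 0.916, 0.943 and 0.893 without WT1 and WT2. For Ankrd1 they were H2-D1, an MHC class I gene (r = 0.963, rho = 0.905), Adpgk, an ADP-dependent glucokinase (r = 0.958, rho = 0.976), and Tubb5, a beta tubulin (r = 0.954, rho = 0.976), with r of 0.886, 0.88 and 0.973 without KO1 and WT4. Fhl1, the gene most like Ankrd2, is itself one of the 9.

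**Figure D4:**
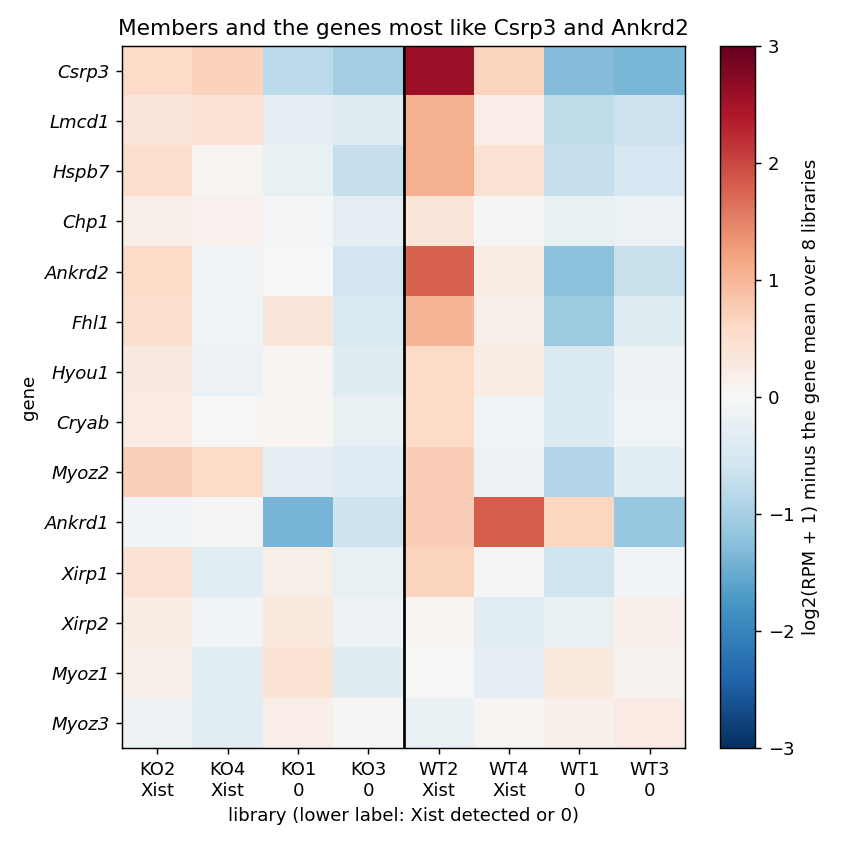
Deviation of log2(RPM + 1) from each gene's mean over 8 libraries, with rows for Csrp3 and Ankrd2, each above its 3 most similar genes, and then the other members. Columns are KO libraries on the left and WT on the right, with the libraries that hold Xist first in each. Csrp3, Lmcd1, Hspb7, Ankrd2 and Fhl1 are highest in WT2, and Ankrd1 is highest in WT4.

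Other genes of the Z-disc and of load sensing gave the setting for these values, from lists chosen by function with earlier results known. Of 26 tested genes of Z-disc and sarcomere structure, 19 were above 0 in KO, with a median log2 difference of 0.05 (all genes -0.05), and 0 passed the threshold. Flnc, the filamin that crosslinks actin at the Z-disc, was the only gene of this list at an unadjusted p under 0.05, with 1093 ± 172 RPM in KO and 1453 ± 360 RPM in WT libraries (SD, n = 4 each), a difference of -0.39 on the log2 scale (adjusted p = 0.482). Among all genes 8.56% were lower in KO at that unadjusted p in limma. Actn3, the actinin of fast fibres, averaged 9212 ± 611 RPM in KO and 8172 ± 723 RPM in WT libraries (adjusted p = 0.80). Of 12 tested genes of calcineurin signalling, the pathway that myozenins hold in check, 6 were above 0, with a median of -0.02 and 0 past the threshold. Nfatc4, a target of calcineurin, averaged 4.62 ± 1.46 RPM in KO and 9.67 ± 4.43 RPM in WT libraries, a difference of -0.88 on the log2 scale (adjusted p = 0.203), and Ppp3ca, the catalytic subunit, averaged 335 ± 20.4 RPM in KO and 288 ± 23.8 RPM in WT libraries (adjusted p = 0.605). Nfatc4 was at 16.2 RPM in WT4 and at 7.68, 8.43 and 6.39 RPM in WT1 to WT3, where KO2 held 6.75 RPM.

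Chaperones and stretch-responsive genes were also without a call for genotype. Of 9 tested chaperone and tension-linked autophagy genes, 6 were above 0, with a median of 0.11. Unc45b, a myosin chaperone, averaged 543 ± 58.5 RPM in KO and 452 ± 92.1 RPM in WT libraries (adjusted p = 0.631). Of 18 tested genes of stretch and load response, Csrp3 and Ankrd1 among them, 12 were below 0, with a median of -0.11. Ctgf (now Ccn2), a secreted target of YAP, averaged 52.4 ± 26.6 RPM in KO and 109 ± 55.5 RPM in WT libraries, a difference of -1.10 on the log2 scale (adjusted p = 0.309), and Myc averaged 3.52 ± 1.68 RPM in KO and 6.40 ± 2.25 RPM in WT libraries (adjusted p = 0.36). Ctgf was at 192 RPM in WT4 and at 76.3, 85.3 and 80.9 RPM in WT1 to WT3, where KO3 held 82.9 RPM. Of 9 tested genes for titin-linked LIM proteins, ubiquitin ligases and ankyrin-repeat proteins, Ankrd1 and Ankrd2 among them, 7 were below 0, with a median of -0.08. In the comparison by Xist, 1 of 9 chaperone genes passed. Hspb7 averaged 741 ± 217 RPM with Xist and 350 ± 57.2 RPM without (SD, n = 4 each), a log2 difference of 1.05 (SE 0.18, limma with BH, adjusted p = 0.0176), and Hspb6 averaged 2191 ± 473 RPM with Xist and 1360 ± 245 RPM without (adjusted p = 0.103). Hspb7 values with Xist were 717 and 528 RPM in KO and 1043 and 676 RPM in WT libraries, all above the 307 to 431 RPM of the libraries without.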

How the data were processed

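RNA of 8 mouse TA muscles, 4 KO and 4 WT, was read with an Ion AmpliSeq transcriptome panel, per the labels. The authors deposited RPM values, amplicon reads scaled to a common library total, for 23930 targets. Transcriptome Analysis Console is the tool in the submitters' processing notes. Aligner, build and counting rule were not given in the sources used here. Low values were whole multiples of 1 read, and division gave whole reads (within 0.1) for 99.96 to 100.0% of values.

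Columns were matched to samples by barcode. Log2(RPM + 1) of the 11004 targets averaging 1 RPM or more was compared with limma 3.58.1 in R 4.3.3, two-sided, with an intensity trend and BH adjustment at 0.05. A second fit added a term for Xist detected, chosen after its values were seen. Alternatives used DESeq2 1.42.0 and edgeR 4.0.16 on those reads, other pseudocounts, filters and scalings, covariates and left-out libraries. The fits were also run on simulated reads, and the outcome is not reported here. Coordinates come from GENCODE M21 or RefSeq, both GRCm38, and older symbols in the table were matched through RefSeq synonyms. All members were named. From each list used, up to 4 genes past the threshold could be named, otherwise the 2 with the smallest p and the 2 most abundant, and for 4 members the 3 most correlated targets. The members and lists were chosen with earlier results of these data known. The labels speak of separate mice. Pairs of libraries within a genotype differed by more than sampling error (chi-square over its degrees of freedom 12.26 to 34.36). Floors in reads cover counting error only.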

Additional observations from a re-analysis of the deposited data

How the results depend on the processing

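For genotype, 0 of 9 genes passed under every alternative run (lowest adjusted p = 0.0511, Ankrd1 without WT3), and 179 of 207 values kept their direction. Ankrd1 stayed below 0 in all 23 alternatives, from -1.70 to -0.32. Ankrd2 turned to 0.0055 with TMM and 0.010 with median-ratio scaling. With the slow fibre covariate Myoz1 turned to 0.066, Myoz2 to -0.18, Myoz3 to 0.0695, Fhl1 to -0.134 and Xirp1 to -0.0367. Without WT1 and WT4 Myoz2 turned to -0.0618, Fhl1 to -0.256, Xirp1 to -0.286 and Xirp2 to -0.0393. Without KO2 and KO4 Myoz2 turned to -0.18, Myoz3 to 0.0622 and Xirp1 to -0.0091. Leaving out 1 library gave -0.79 to 0.53 for Csrp3, -0.46 to 0.54 for Ankrd2, -0.212 to 0.0419 for Myoz1, -0.20 to 0.50 for Fhl1, -0.17 to 0.25 for Xirp1, 0.07 to 0.61 for Myoz2 and 0.07 to 0.23 for Xirp2. Csrp3 was -0.74 without WT1 and WT4, -1.06 without KO2 and KO4, -0.93 in edgeR and DESeq2 and -1.38 with the slow fibre covariate. The cause was not tested.

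Over all genes, 3 passed for genotype. The count was 1 with TMM, median-ratio or quantile scaling, without the trend, in edgeR, with the slow fibre covariate, without WT1 and WT4 and without KO2 and KO4, and 149 in DESeq2. Leaving out 1 library gave 1 to 130, with 130 without WT3 and 10 without KO1. The replicate block gave 1. Same-numbered libraries correlated at 0.00337 to 0.257 in their deviations from the group means, and KO2 was the 1 KO library closest to its own number, so the numbers were not taken as pairs.

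For Xist, 2 of 9 genes passed. The count was 1 with a filter at a mean of 10 RPM or without the trend, 0 with the slow fibre covariate, 3 without WT1 and WT4 (Ankrd1 added, adjusted p = 0.0169) and 0 to 2 with 1 library left out. Xirp2 turned to 0.0494 with the slow fibre covariate and ranged from -0.153 to 0.0317 with 1 library left out. The sizes for Csrp3 ran from 1.73 to 3.25 and for Myoz2 from 0.75 to 1.13. Those for Ankrd1 ran from 0.85 to 1.56, for Ankrd2 from 0.78 to 2.59, for Fhl1 from 0.49 to 1.73 and for Xirp1 from 0.16 to 1.20, the upper values of the last 3 with the slow fibre covariate and the lower ones without WT2.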

Other observations

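Mrc1, the mannose receptor of resident macrophages, averaged 7.89 ± 3.27 RPM in libraries with Xist and 3.26 ± 1.22 RPM in libraries without (SD, n = 4 each), a log2 difference of 1.04 (SE 0.19, BH-adjusted p = 0.0272 in limma), and it was the 1 macrophage gene of 7 tested that passed. Runx1, a transcription factor known to rise in denervated and injured fibres, averaged 5.85 ± 1.43 RPM in KO and 11.9 ± 6.22 RPM in WT libraries, a log2 difference of -0.83 (SE 0.27, BH-adjusted p = 0.255 in limma). It was at 21.1 RPM in WT4 and at 9.32, 9.86 and 7.32 RPM in WT1 to WT3, where KO2 held 7.88 RPM. Runx1 was the 1 gene of 10 tested on the regeneration list at an unadjusted p under 0.05, where 8.56% of all genes were lower in KO. Myh8, a perinatal myosin heavy chain, averaged 81.3 ± 9.12 RPM in KO and 86.5 ± 18.4 RPM in WT libraries, a log2 difference of -0.07 (adjusted p = 0.952), and 0 of 10 tested regeneration and embryonic muscle genes passed for genotype.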
